A study of Macaca mulatta with 39 samples.

Results

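SOX2 and PAX6, a pair of transcription factor genes, were followed across cultured rhesus macaque cells on single-colour oligonucleotide arrays. They were chosen by the spread of their measured signals over the teratoma cultures, so those levels are described here and not tested. By gene symbol, 5 of the 52865 probe sets belong to them, 3 to SOX2 and 2 to PAX6. They are 2 of the 14132 genes that a probe set with a single gene symbol measured. SOX2 lies on rhesus chromosome 2 and PAX6 on chromosome 14 of the assembly T2T-MMU8v2.0.

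The series holds 39 arrays of 13 cell sources with 3 arrays each, which the design text calls biological triplicates. Teratoma fibroblasts grew out of explants of tumours that embryonic stem cells (ESCs) had formed in mice with a weakened immune system. They comprise 3 cultures from ESC line 3806 (TA38, TB38, TC38, female) and 5 from line 3106 (TA31, TB31, TC31, TD31, TE31, male). ESCs are the lines C3806, female, and C3106, male. Skin fibroblasts came from skin explants of parent animals of the lines (M032, M088, M106p1). The labels name no agent, deletion or transgene for any group and give neither ages nor times in culture. Each ESC line is a single source, and cells of the host mouse that an explant may still have held were not analysed here.

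SOX2 is an HMG-box transcription factor that works beside POU5F1 in pluripotent cells and stays on in neural stem cells and radial glia. PAX6 carries a paired domain and a homeodomain, and is known for its part in the eye, the forebrain, the spinal cord and the islets of the pancreas. As ESCs become neural progenitors, SOX2 is known to be kept while PAX6 is switched on. Fibroblasts of the skin are known for collagen and other matrix genes and not for either factor.

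A total of 3 arrays had the profiles of other sources and were left out of all values unless stated. The array labelled C3806c was closest to culture TC38 (r = 0.998 over all probe sets, against 0.916 with its own line) and had a POU5F1 log2 signal of 4.84. The array labelled M106p1f was closest to TD31 (r = 0.998), and the array labelled TB31c was closest to M106p1 (r = 0.997). Each of the 36 arrays kept was closest to its own source. Array medians ran from 6.25 to 6.48. POU5F1, the central pluripotency factor, lay between 4.64 and 4.90 in teratoma cultures, at 12.93 and 12.89 in ESC lines and between 4.64 and 4.93 in skin. LUM, a matrix proteoglycan of fibroblasts, lay between 12.26 and 12.86 in teratoma cultures, at 3.23 and 3.70 in ESC lines and between 11.84 and 12.80 in skin. NANOG, another pluripotency factor, went against the labels on its brightest probe set, with 9.50 to 9.86 in teratoma cultures, 8.41 and 8.44 in ESC lines and 9.43 to 9.84 in skin.

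SOX2 was read first on its brightest probe set, MmugDNA.27729.1.S1_at, in log2 signal. The highest teratoma culture was TB38, whose arrays read 11.09, 10.91 and 10.70. TA31 read 10.19, 10.67 and 10.15, and TA38 read 9.60, 9.24 and 9.26. These 3 cultures and the next, from both ESC lines, carried a SOX2 signal far above that of skin fibroblasts. TC38 read 9.11, 8.49 and 9.24. TC31 read 7.87, 8.09 and 7.73. TE31 read 4.62, 5.39 and 5.06, TB31 read 4.75 and 4.87, and TD31 read 4.78, 5.01 and 4.56. The last 3 cultures, all of line 3106, lay close to skin, and every array of the other 5 lay above every array of these 3.

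The ESC arrays set the upper end of the SOX2 scale. C3106 read 12.58, 12.54 and 12.49, and C3806 read 12.55 and 12.28. Skin arrays set the lower end, with 4.48, 4.61 and 4.56 in M032, 4.20, 4.43 and 4.37 in M088, and 4.35 and 4.62 in M106p1. No teratoma array reached the ESC arrays, and the lowest teratoma array, at 4.56, lay within the range of skin. The array labelled C3806c read 9.03, inside the range of TC38 and below the range of its own line.

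As source means, SOX2 had 10.90 ± 0.20 in TB38, 10.33 ± 0.29 in TA31, 9.37 ± 0.21 in TA38, 8.94 ± 0.40 in TC38 and 7.90 ± 0.18 in TC31 (SD, n = 3 arrays each). The arrays of neighbours in that order lay apart, except that TA38 and TC38 met at 9.24 and do not differ beyond their spread. The mean was 5.02 ± 0.39 in TE31 (n = 3), 4.81 ± 0.08 in TB31 (n = 2) and 4.78 ± 0.22 in TD31 (n = 3), and these 3 did not differ beyond the spread of their arrays. The skin cultures came after them, at 4.55 ± 0.07 in M032, 4.48 ± 0.19 in M106p1 and 4.33 ± 0.12 in M088, each overlapping with the next. C3106, at 12.54 ± 0.04, and C3806, at 12.41 ± 0.19, overlapped with each other at the top.

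In fold terms, SOX2 in TB38 was 2.98-fold below the mean of both ESC lines and 87.0-fold above the mean of skin. In TC31 it was 23.9-fold below ESCs and 10.9-fold above skin. TE31, TB31 and TD31 were 1.48-fold, 1.27-fold and 1.25-fold above skin. These are folds of signal. Skin lay well below the array medians for both genes, and where a probe set reads its background the fold over skin is only a lower bound. Within 1 kind of culture, the SOX2 signal thus ran from the level of skin to within 2 log2 units of ESCs. The arrays hold bulk RNA, so fewer cells of a type and less RNA per cell cannot be told apart.

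**Figure D1:**
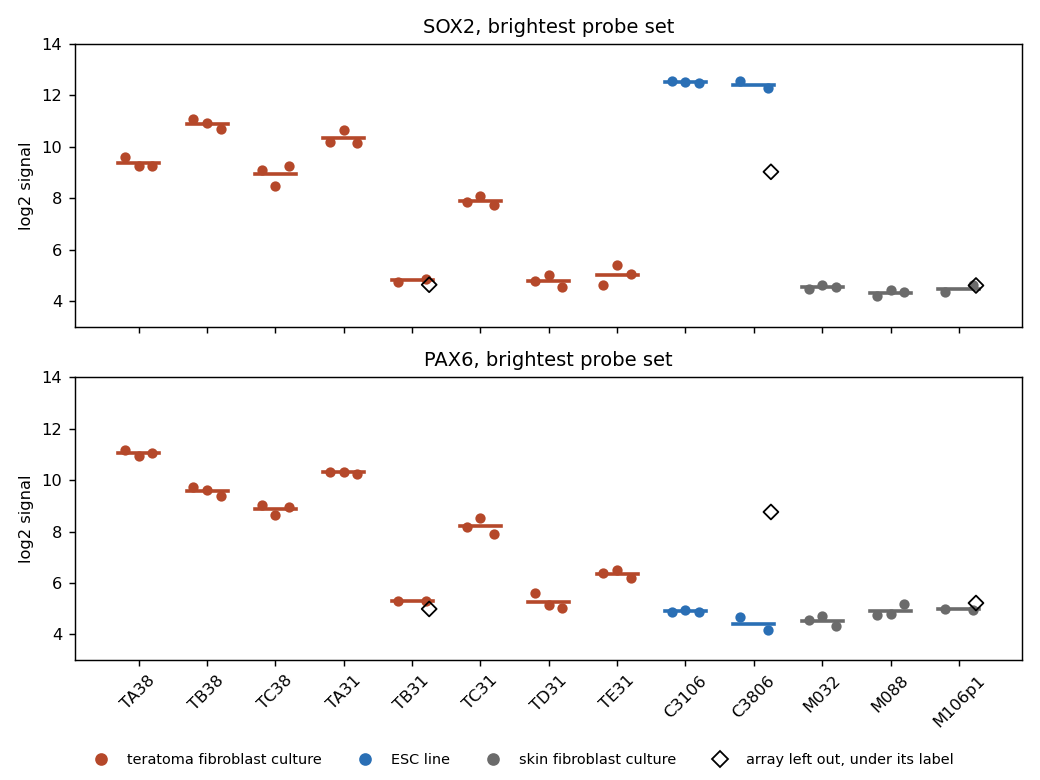
Log2 signal of the brightest probe set of SOX2 (upper panel) and PAX6 (lower panel) in each array (filled points) with the source mean (line), for 8 teratoma cultures, 2 ESC lines and 3 skin cultures; open diamonds are the 3 arrays left out, drawn under their labels. SOX2 reads 12.28 to 12.58 in ESC arrays and 4.20 to 4.62 in skin, and PAX6 reads at most 4.96 in ESC arrays and 5.18 in skin, while teratoma arrays run from 4.56 to 11.09 for SOX2 and from 5.03 to 11.16 for PAX6.

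PAX6, on its brightest probe set MmugDNA.4541.1.S1_at, was high in the same 5 teratoma cultures, in another order. TA38 read 11.16, 10.95 and 11.05. TA31 read 10.32, 10.32 and 10.25, and TB38 read 9.72, 9.62 and 9.39. TC38 read 9.04, 8.65 and 8.94, and TC31 read 8.16, 8.53 and 7.90. Each of these cultures lay clear of its neighbours in the order. TE31 read 6.39, 6.52 and 6.19, TB31 read 5.28 and 5.29, and TD31 read 5.60, 5.13 and 5.03. TE31 stood apart from TB31 and TD31 for PAX6, which it did not for SOX2.

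ESC arrays had no PAX6 signal above that of skin. C3106 read 4.86, 4.96 and 4.88, and C3806 read 4.68 and 4.16. M032 read 4.57, 4.70 and 4.34, M088 read 4.75, 4.78 and 5.18, and M106p1 read 4.99 and 4.95. The ESC and skin arrays lay among each other. The array labelled C3806c read 8.76 for PAX6, inside the range of TC38.

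The PAX6 means were 11.05 ± 0.10 in TA38, 10.29 ± 0.04 in TA31, 9.58 ± 0.17 in TB38, 8.87 ± 0.20 in TC38, 8.20 ± 0.32 in TC31 and 6.37 ± 0.17 in TE31 (SD, n = 3 each). TB31 had 5.28 (n = 2) and TD31 had 5.25 ± 0.30 (n = 3), with overlapping arrays. TA38 was 76.2-fold above the mean of skin, TC31 10.5-fold and TE31 2.96-fold. TB31 and TD31 were 1.40-fold and 1.37-fold above it, with TD31 arrays overlapping those of M088. M106p1, M088 and C3106, at 4.97, 4.90 and 4.90, overlapped in their arrays, as did M032 and C3806 at 4.54 and 4.42.

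Over the 8 teratoma culture means, SOX2 averaged 7.76 ± 2.55 and PAX6 8.11 ± 2.25 (SD over cultures). The means spanned 6.12 log2 units for SOX2 and 5.80 for PAX6, while the pooled SD between arrays of a culture was 0.27 for SOX2 and 0.19 for PAX6. Ordered by that span over all 14132 genes, SOX2 was number 14 and PAX6 number 20, and the median gene spanned 0.44. These spans are what the genes were picked for, and they carry no test. Among all genes, 15.0% were called as differing among the cultures (limma F test over arrays, Benjamini-Hochberg adjusted p under 0.05 and a span of at least 1 log2 unit), and both genes are inside that share by their choice.

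The dimmer probe sets showed how far a reading depends on the probe set. On MmugDNA.26127.1.S1_at, SOX2 had 7.07 ± 0.32 in TB38, 6.49 ± 0.38 in TA31 and between 5.81 and 6.31 in the other 6 teratoma cultures, against 9.21 and 8.98 in ESC lines C3106 and C3806 and 5.59 to 5.67 in skin. The culture means there spanned 1.26 log2 units. On MmugDNA.26126.1.S1_at the span was 1.13, with 6.95 ± 0.33 in TB38, 8.24 and 7.47 in ESC lines C3106 and C3806 and 5.89 to 6.11 in skin. Both put TB38 highest among the teratoma cultures. On MmugDNA.26126.1.S1_at, however, TE31 (6.20) lay above TC31 (6.07), which lay below skin culture M032 (6.11), so the split of 5 high and 3 low cultures did not hold there. TA38 and TC31, which were 30.1-fold and 10.9-fold above skin on the brightest probe set, were 1.40-fold and 1.26-fold above it on MmugDNA.26127.1.S1_at, with values of 6.13 and 5.97.

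The second PAX6 probe set, MmugDNA.793.1.S1_at, spanned 3.02 log2 units. It had 8.04 ± 0.04 in TA38, 7.56 ± 0.32 in TA31, 6.75 ± 0.14 in TB38, 6.26 ± 0.30 in TC38 and 6.22 ± 0.13 in TC31 (SD, n = 3 each). TE31, at 5.33, lay just above the skin means of 4.86 to 5.25, TB31 and TD31, at 5.05 and 5.03, lay among them, and ESC lines C3106 and C3806 had 4.85 and 4.63. The order of the 8 cultures was that of the brightest PAX6 probe set. Over the 8 cultures, the brightest probe set had r = 0.98 and rho = 1.0 with the second for PAX6. For SOX2 it had r = 0.85 and rho = 0.95 with MmugDNA.26127.1.S1_at, and r = 0.78 and rho = 0.90 with MmugDNA.26126.1.S1_at. Probe sets of a gene share the array and the RNA.

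**Figure D2:**
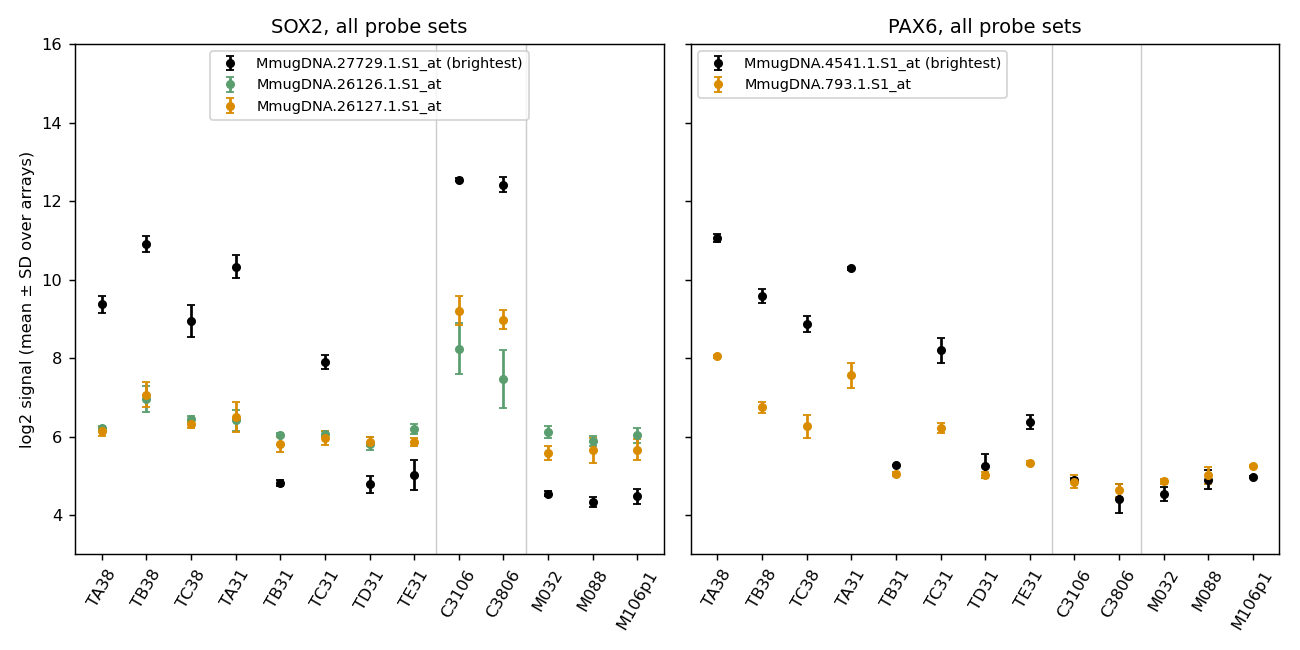
Source means (points) with SD over arrays (bars) in log2 signal for the 3 probe sets of SOX2 (left) and the 2 of PAX6 (right), in the order teratoma cultures, ESC lines and skin cultures. The brightest SOX2 probe set spans 6.12 log2 units over the teratoma cultures and the others 1.13 and 1.26, while the PAX6 probe sets span 5.80 and 3.02.

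Between the genes, r was 0.93 and rho 0.90 over the 8 teratoma culture means. Without TD31 and TB31, the cultures farthest from the SOX2 median, r was 0.86 and rho 0.77 over 6 cultures. The cultures fall into a set of 5 with high SOX2 and a set of 3 with low SOX2, so r carries that split, and neither set has the 6 cultures that a value within it would need. Within the high set the orders differed: SOX2 ran TB38, TA31, TA38, TC38, TC31, and PAX6 ran TA38, TA31, TB38, TC38, TC31. TA38 had 1.53 log2 units less SOX2 than TB38 and 1.48 more PAX6. Both genes were read on the same arrays.

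**Figure D3:**
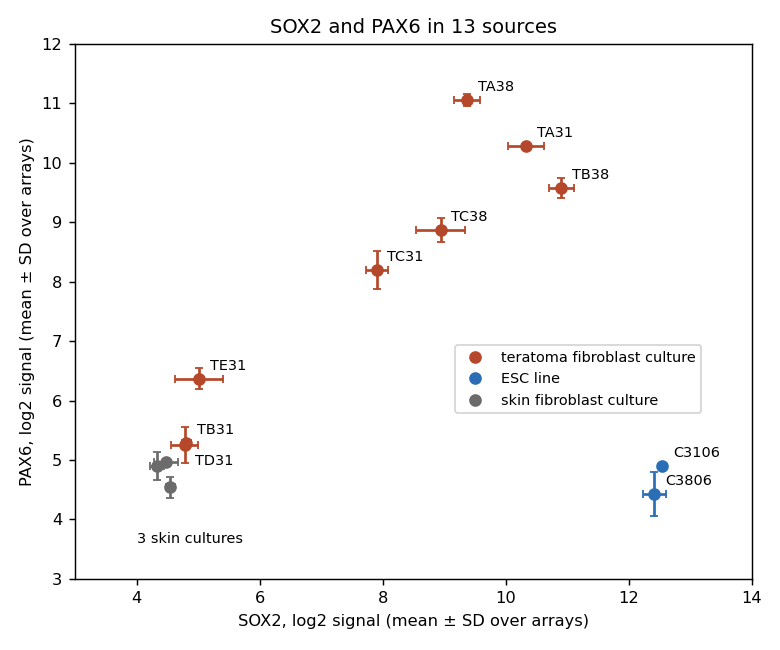
Source means of SOX2 (horizontal axis) and PAX6 (vertical axis) in log2 signal, with SD over arrays as bars, for 8 teratoma cultures, 2 ESC lines and 3 skin cultures. TA38, TA31, TB38, TC38 and TC31 are high in both genes, TE31, TB31 and TD31 lie near skin in SOX2, and the ESC lines combine the highest SOX2 with PAX6 at the skin level.

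The comparison of ESCs with skin fibroblasts was not used to pick the genes and could be tested on source means. SOX2 averaged 12.48 ± 0.09 in ESCs (SD, n = 2 lines) and 4.46 ± 0.11 in skin (n = 3 cultures). It was higher in ESCs by 8.02 log2 units (SE 1.50, limma adjusted p = 0.00164), in a comparison in which 10.2% of all genes were called higher in ESCs and 9.76% lower. PAX6 averaged 4.66 ± 0.34 in ESCs and 4.80 ± 0.23 in skin, and its difference of -0.14 did not pass (SE 1.33, adjusted p = 0.949). As a mean of all 3 probe sets the SOX2 difference was 4.44, which also passed. Both SEs are large, because each ESC line is a class of its own and the SE pools the spread of skin with that of the teratoma cultures, where both genes vary most.

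Set against skin, the teratoma classes averaged 3.70 log2 units higher for SOX2 and 3.65 for PAX6, given without a test because the genes were picked for their spread in these cultures. In that comparison 0.658% of all genes were called higher in teratoma fibroblasts and 0.545% lower. The line of origin is the single split of the teratoma cultures that the labels give, and it cannot be told apart from sex. SOX2 averaged 9.74 in the 3 cultures of line 3806 and 6.57 in the 5 of line 3106, a difference of 3.17. PAX6 averaged 9.83 in line 3806 and 7.08 in line 3106, a difference of 2.76. The lines overlapped in both genes, since TA31 of line 3106 was second among all cultures for each. Between the lines 0.0354% of all genes were called higher in line 3806, namely KRT81, PTH2R, RIT2, SPMAP2 and VIL1, and 0.00708% lower, which is AMACR alone.

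Genes that go with SOX2 and PAX6 were ranked by r over the 8 teratoma culture means, among the 648 other genes whose means span at least 2 log2 units. All points share the same arrays, and the values are a description of these 8 cultures. For each member, 6 of the 648 genes (0.926%) had r of at least 0.9. Below -0.9 there were 0 for SOX2 and 1 for PAX6 (0.154%). The 12 genes highest in r to SOX2 and the 12 highest to PAX6 share 6, besides the members themselves: NOX4, NFE2L3, SLAIN1, ANKFN1, RNF128 and CCL2.

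NOX4, an NADPH oxidase that makes hydrogen peroxide, was the gene closest to SOX2 (r = 0.99, rho = 0.98), and its r to PAX6 was 0.91. It had 7.66 in TB38, 7.20 in TA31, 6.69 in TA38, 6.67 in TC38 and 5.99 in TC31, against 4.93 in TB31, 4.78 in TE31 and 4.36 in TD31. NOX4 thus put the same 5 cultures first, in the order of SOX2. ESC lines C3106 and C3806 had 5.78 and 5.04, inside the teratoma range, and skin had 4.03 to 4.86.

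NFE2L3, a transcription factor of the CNC family, was the gene closest to PAX6 (r = 0.96) and the next after NOX4 for SOX2 (r = 0.98). It had 7.0 in TA31, 6.60 in TB38, 6.43 in TA38, 6.32 in TC38 and 5.18 in TC31, and between 3.65 and 4.24 in the other 3 cultures. ESC lines C3106 and C3806 had 11.18 and 11.59, above every culture, and skin had 3.43 to 3.62. ESCs exceeded skin by 7.84 log2 units (SE 0.81, limma adjusted p = 4e-05). SLAIN1, a microtubule-end protein, ran from 3.05 in TB31 to 7.55 in TB38, with 8.60 and 8.73 in ESC lines C3106 and C3806 and 2.78 to 2.94 in skin. It had r = 0.91 to SOX2 and 0.84 to PAX6, and ESCs exceeded skin by 5.81 (SE 1.01, adjusted p = 0.00105).

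LOC696048, which the files name only by that symbol, had r = 0.96 to SOX2, with 6.28 to 8.76 in teratoma cultures, 11.80 in each ESC line and 5.92 to 6.15 in skin. FGF12, an intracellular FGF homologous factor that binds sodium channels, had r = 0.90 with 6.28 to 8.57 in teratoma cultures, 8.97 and 9.53 in ESC lines C3106 and C3806 and up to 9.18 in skin. Of the 12 genes highest in r to SOX2, both ESC lines lay above every teratoma culture for 4 (NFE2L3, LOC696048, SLAIN1 and FGF12) and below every culture for 3 (PAX6, ANKFN1 and CCL2). A pattern shared over the teratoma cultures was therefore not one shared over all 13 sources. The remaining genes were GPM6B (r = 0.88), a proteolipid membrane protein of neural cells, PIPOX (0.88), a peroxisomal oxidase, and CP (0.87), the copper carrier ceruloplasmin. CP and PIPOX were led by TB38, at 7.07 and 7.64.

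CCL2, a chemokine that draws monocytes, had r = 0.90 to PAX6 and 0.86 to SOX2. It had 11.70 in TA38, 11.36 in TA31 and 11.07 in TB38, and between 8.80 and 9.96 in the other 5 cultures. It was at 4.67 and 4.64 in ESC lines C3106 and C3806 and between 7.22 and 10.08 in skin. RNF128, an E3 ubiquitin ligase, had r = 0.87 to SOX2 and 0.85 to PAX6, with its highest value, 7.58, in TA31. For ANKFN1 (r = 0.88 and 0.87 on its brightest probe set) the brightest other probe set spanned 0.19 log2 units with r = -0.21 to SOX2, so its probe sets disagree.

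On the PAX6 side alone, MECOM, a zinc finger transcription factor, had r = 0.93, with 7.85 in TA38, 7.55 in TA31 and 5.22 in TE31. TRPC4, a cation channel, had r = 0.91, with 7.04 in TA38 and 4.51 in TD31. DLX1, a homeobox factor of forebrain interneurons, had r = 0.88, with 7.63 in TA31 and 5.25 in TD31, while its other probe set spanned 0.45. CPNE4, a calcium-binding copine, had r = 0.85 with its highest culture value, 7.47, in TC38, and ITGA2, a collagen-binding integrin chain, had r = 0.83 with 8.97 in TA38. For CPNE4 the r moved from 0.79 to 0.97 depending on which culture was left out. Of the 12 genes highest in r to PAX6, both ESC lines lay above every teratoma culture for 4: SOX2, NFE2L3, SLAIN1 and CPNE4. They lay below every culture for 4: TRPC4, ITGA2, CCL2 and ANKFN1. In skin, ITGA2 had 8.36 to 9.80, reaching above every teratoma culture, and DLX1 had 5.64 to 6.76, within the teratoma range. TRPC4 had 4.40 to 5.72 in skin, MECOM 5.22 to 5.85 and CPNE4 4.96 to 5.15.

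The genes lowest in r ran the other way. IGF1, a secreted growth factor, had r = -0.92 to PAX6 and -0.80 to SOX2, with 6.91 in TA38 and 7.24 in TA31 but 9.59 in TB31 and 9.31 in TD31. CRABP2, which carries retinoic acid to its receptor, had r = -0.89 to SOX2 and -0.80 to PAX6, with 9.27 in TB38 and 11.79 in TD31. CLIC2, an intracellular channel family protein, had r = -0.84 to SOX2 and -0.85 to PAX6, with 5.49 in TA31 and 9.47 in TD31. To SOX2, the others were OSR2 (r = -0.86), ADAMTS5 (-0.84) and PTX3 (-0.82). To PAX6 they were PAQR6 (-0.84), MYOZ2 (-0.82) and ASS1 (-0.78), and for PAQR6 the other probe set had r = 0.19.

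**Figure D4:**
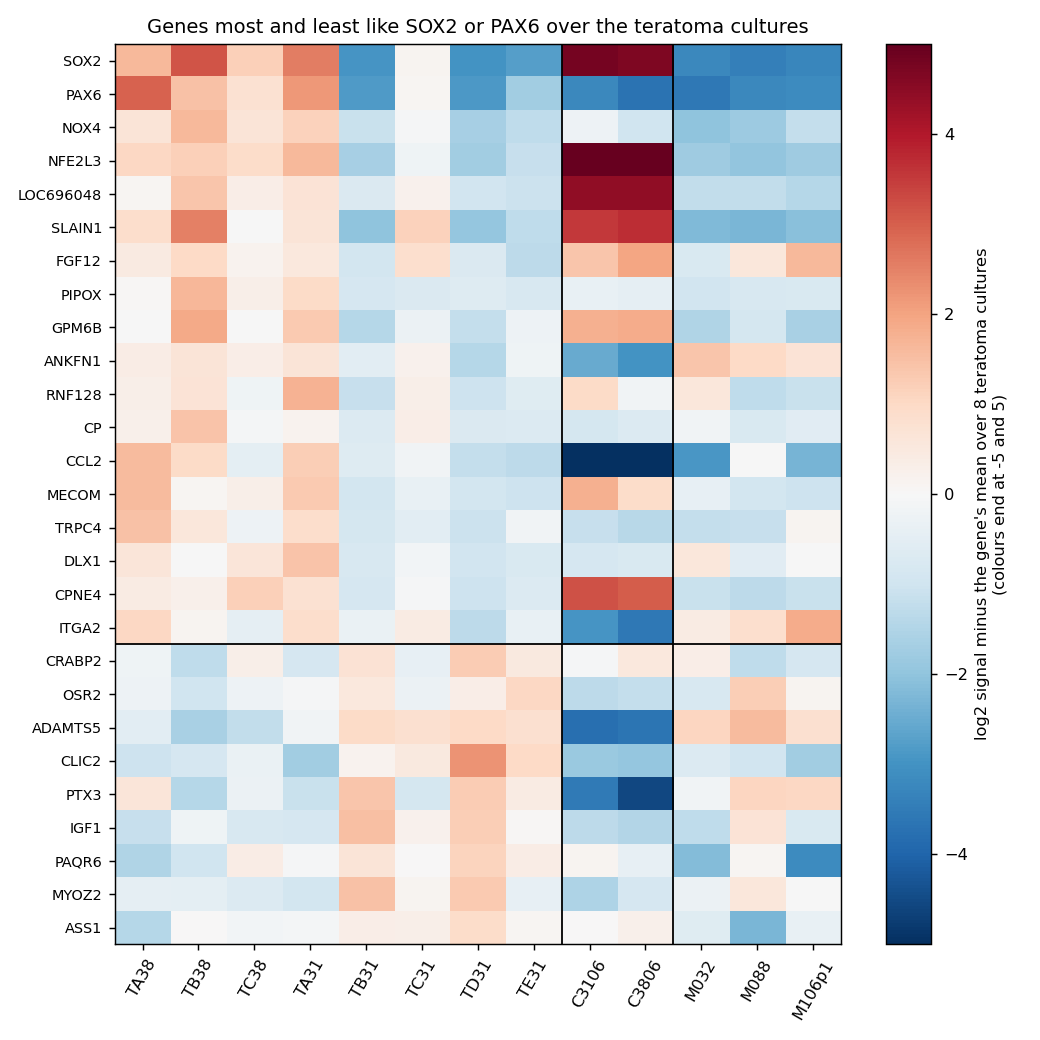
Log2 signal of SOX2, PAX6 and the genes with the highest (above the horizontal line) and lowest (below it) r to either, as source means minus the gene's mean over the 8 teratoma cultures, for teratoma cultures, ESC lines and skin cultures from left to right; colours end at -5 and 5. Above the line, SOX2, NFE2L3, LOC696048, SLAIN1 and CPNE4 are highest in the ESC lines. PAX6, CCL2, ANKFN1, TRPC4 and ITGA2 are lower there than in every teratoma culture. Below the line, OSR2, ADAMTS5, CLIC2, PTX3 and IGF1 are lower in the ESC lines than in every teratoma culture.

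Among the families, 14 other SOX genes were measured and 2 were called as differing among the teratoma cultures, a share of 14.3% against 15.0% of all genes. SOX11, a factor of immature neurons and of mesenchyme, had 8.35 to 9.35 in 7 cultures and 7.13 in TE31, 9.34 and 9.32 in ESC lines C3106 and C3806, and 4.14 to 4.46 in skin. Its r to SOX2 was 0.41, and unlike SOX2 it was high in TB31 (8.80) and TD31 (8.62). SOX11 was called higher in teratoma fibroblasts than in skin, by 4.32 log2 units (SE 0.39, limma adjusted p = 0.000759). SOX4, a relative of SOX11, had r = 0.89 over a span of 1.07, from 11.04 in TE31 to 12.10 in TB38. SOX3, which belongs to the same subgroup as SOX2, lay between 5.58 and 5.84 in teratoma cultures, at 8.81 and 8.34 in ESC lines C3106 and C3806 and between 5.62 and 5.73 in skin. SOX3 and SOX4 were picked for naming after their values were seen. Of the 6 other PAX genes measured, 0 were called among the cultures by limma on their brightest probe sets, whose spans ran from 0.17 to 0.79. Both before and after adjustment 2 had p under 0.05, and these missed only the span of at least 1 log2 unit.

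Of the 4 genes on each side of SOX2 and PAX6 on their chromosomes, 3 were measured around SOX2 and 5 around PAX6. Neither of the genes directly next to SOX2 was among them. Around SOX2, DNAJC19 spanned 0.40 log2 units over the teratoma cultures, ATP11B 0.54 and LOC706634 0.84. On the PAX6 side, RCN1 spanned 0.23, EIF3M 0.37, IMMP1L 0.46 and ELP4 0.50. WT1, the Wilms tumour factor, spanned 1.75 with r = 0.49 to PAX6, from 5.25 in TD31 to 7.0 in TA38 and TB38. It was the single neighbour called, on its brightest probe set, while its other probe set spanned 0.42. Of the wider lists of neighbours, MCCC1 and LAMP3 spanned 0.30 and 0.32, and SOX2-OT was not analysed here.

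Lists of genes of cell types in which SOX2 or PAX6 is known were set beside the members. Their calls and spans rest on the brightest probe set of each gene, and other probe sets can span more or less. Of 17 measured genes of neural stem cells and radial glia, 8 were called among the cultures (47.1%, against 15.0% of all genes), with a median span of 0.61. Among the 8 that spanned at least 1 log2 unit the median r to SOX2 was 0.17, and 1 had r of at least 0.7. Over all 2186 genes with such a span the median r was -0.01, and 4.8% had r of at least 0.7. ZIC2, a zinc finger factor of the neural plate, had 8.44 to 10.98 in 7 cultures and 4.39 in TE31 (r = 0.30). PROM1, a membrane protein of stem cells and epithelia, had 7.89 in TA31 and 7.23 in TB38 but also 7.69 in TE31 (r = 0.45). ID4 had r = 0.04 and EMX2 r = -0.37. NR2E1, a receptor of neural stem cells, had the highest r to SOX2 of this list, 0.73, over a span of 1.26. Its r to PAX6 was 0.88. Its culture means, from 4.20 in TD31 to 5.46 in TA38, all lay below the array medians. NR2E1 was picked for naming after its values were seen.

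Of 15 genes of the eye field, lens and retina, 4 were called (26.7%, against 15.0% of all genes): CRYAB, SFRP2, DACH1 and CRYBA1. DACH1, a factor of the retinal network, had r = 0.83 over a span of 1.14, and CRYAB, a small heat shock protein of the lens and of muscle, had r = 0.29. The other probe sets of CRYAB and CRYBA1 spanned 0.24 and 0.36, against 2.0 and 1.07 on the brightest. Of 13 forebrain genes, 3 were called (23.1%): MEIS2 (r = 0.59), DLX1 (0.84) and IRX3 (-0.44). MEIS2, a homeobox cofactor, had 10.42 in TA31 and 7.26 in TD31, with 8.72 to 10.06 in skin.

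Of 11 genes of neurons, 4 were called (36.4%, against 15.0% of all genes). SYT1, a synaptic vesicle protein, had r = 0.81, with 10.89 in TB38 and 8.49 in TE31, and GAP43, a growth cone protein, had r = 0.65, with 10.90 in TC38 and 8.01 in TD31. DCX, a microtubule protein of young neurons, had r = -0.39, with 9.47 in TB31 and 8.86 in TA38 but 5.62 in TB38. The other probe sets of DCX and GAP43 spanned 0.33 and 0.84 log2 units, against 4.23 and 2.89 on the brightest. STMN2 was highest in TE31, at 8.69. SYT1 was called higher in teratoma fibroblasts than in skin (1.77 log2 units, SE 0.39, limma adjusted p = 0.0411) and STMN2 lower (-2.50, SE 0.56, adjusted p = 0.0428). Over the neuron genes, r to SOX2 thus lay on both sides of 0.

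Of 9 genes of astrocytes, 4 were called (44.4%, against 15.0% of all genes): CD44, ALDOC, S100B and AGT. S100B had 7.64 in TB38 and at most 5.37 in the other 7 cultures, and AGT was highest in TD31, at 7.62. GFAP was not called on its brightest probe set, which spanned 0.72, while its other probe set spanned 3.17. Of 8 genes of the oligodendrocyte lineage 0 were called in the F test by limma. An unadjusted p under 0.05 was found for 5 and an adjusted p under 0.05 for 4, which spanned less than 1 log2 unit. UGT8 had the widest span, 1.41, without passing adjustment. Of 11 genes of neural crest and Schwann cells, 5 were called (45.5%): S100B again, HAND2, PMP22, NGFR, at 9.54 in TD31 and 5.44 in TE31, and TFAP2A, at 10.90 in TE31 and 7.88 in TD31. The other probe set of NGFR spanned 0.34, against 4.09 on the brightest. Of 31 Notch, FGF and WNT genes, 12 were called (38.7%), and of the 12 that spanned at least 1 log2 unit 0 had r of at least 0.7 to SOX2. JAG1, a Notch ligand, had the widest span there, from 7.51 in TE31 to 10.86 in TD31.

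Of 14 measured pluripotency genes other than SOX2, 3 were called (21.4%, against 15.0% of all genes): KLF4 (r = -0.41), ZFP42 (0.44) and DNMT3B (-0.28). DPPA4 lay between 5.56 and 6.01 in teratoma cultures, against 11.97 and 11.44 in ESC lines C3106 and C3806. POU5F1 had at most 4.90 in the cultures where SOX2 reached 10.90.

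Genes of other cell types differed among the cultures as well, and their part in the levels of SOX2 and PAX6 was not tested. Of 16 skeletal muscle genes, 12 were called (75.0%, against 15.0% of all genes), with a median span of 3.65 and a median r to SOX2 of -0.41. CKM and TNNT1 were not called, with spans of 0.18 and 0.35, but spanned 5.16 and 5.75 on their brightest other probe sets. The mean of the 16 was 8.93 in TB31 and 8.76 in TD31, 2 of the 3 cultures with low SOX2, and 6.03 in TE31, the third. It was 7.47 in TA38 and 7.39 in TB38, where SOX2 was high. MYF5, a determination factor of muscle progenitors, had 8.40 in TB31, 9.46 in TD31 and at most 4.16 elsewhere.

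Of 14 genes of epithelium, 4 were called (28.6%), KRT8, KRT18, KRT19 and DSP, a desmosome protein, at 12.84 in TD31 and 4.12 in TE31, with r = 0.25. The other probe set of KRT18 spanned 0.20, against 2.08 on the brightest. Of 13 genes of foregut and pancreas, where PAX6 also works, 2 were called (15.4%, against 15.0% of all genes). They were ISL1, a homeobox factor, at 8.86 in TA38 and 7.16 in TE31, and FOXA1. ISL1 had r = 0.08 to PAX6. Of 15 fibroblast genes, 6 were called (40.0%), and the mean of the list stayed between 10.75 in TB38 and 11.09 in TB31, against 7.10 and 7.09 in ESC lines C3106 and C3806 and 11.11 to 11.21 in skin. The mean of the list had r = -0.67 to SOX2 over that narrow range, and single members varied far more: NT5E spanned 2.74 log2 units, S100A4 2.64 (10.16 in TB38, 12.80 in TA38), FAP 2.18 and DCN 1.75. On its brightest other probe set, however, NT5E spanned 0.50. Of 7 leukocyte genes 1 was called (14.3%), CD68, and of 9 endothelial genes 1 (11.1%), TEK (r = -0.62), against 15.0% of all genes. The other probe sets of CD68 and TEK spanned 0.61 and 0.34, against 1.07 and 4.14 on the brightest.

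**Figure D5:**
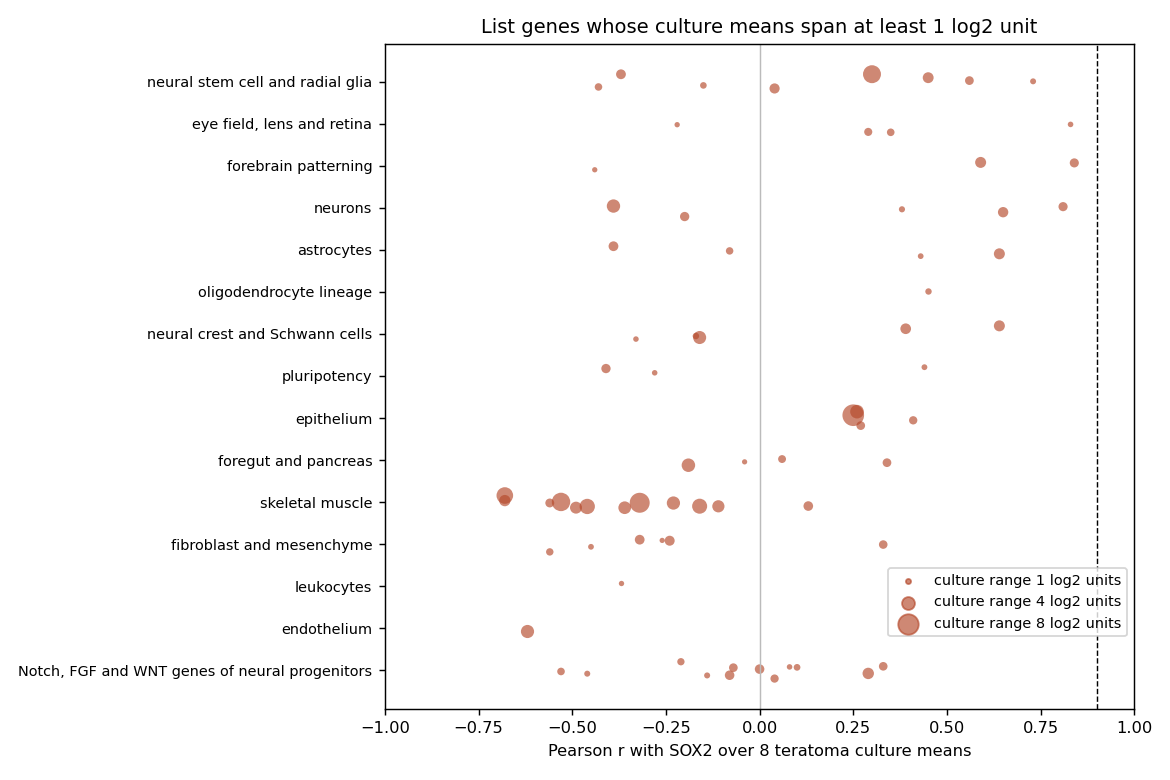
Pearson r to SOX2 over the 8 teratoma culture means (horizontal axis) for the genes of each list of a cell type or pathway (the SOX, PAX and neighbour lists are not drawn) whose means span at least 1 log2 unit; the area of a point grows with the span, and the dashed line marks r = 0.9. No gene drawn reaches the line, DLX1 at 0.84 and DACH1 at 0.83 come closest, and 11 of the 12 skeletal muscle genes lie below 0.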

How the data were processed

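Total RNA from 39 samples of rhesus cells was measured on single-colour arrays, 3 for each of 13 sources. The deposited values are log2 signals that the authors made with GCOS and RMA, per the submitters' processing notes, with no version or setting stated there. Background, array distributions and probes were thus already handled, and levels of different probe sets are not comparable. Values ran from 2.11 to 14.18. The number of arrays limits the precision, and no depth applies.

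Genes came from the platform's probe annotation, with 1 symbol for 24956 probe sets, several for 361 and the rest unnamed or control. The brightest probe set over the 36 arrays kept stood for a gene. Chromosomes and neighbours came from RefSeq, assembly T2T-MMU8v2.0, with 13945 genes matched by identifier. Neighbours were taken by gene order along the chromosome, and no coordinates are printed.

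limma 3.58.1 in R 4.3.3 was fitted to all genes. The F test among teratoma cultures used arrays with 13 sources as groups (23 residual degrees of freedom) and measures the spread between arrays only. Other contrasts used source means in 5 classes, each ESC line, the teratoma cultures of each line, and skin (8 residual degrees of freedom). Calls needed a two-sided Benjamini-Hochberg adjusted p under 0.05 and at least 1 log2 unit. The fits were tested on simulated data. The members and the gene lists were chosen with earlier results of these data known. Named genes were the 12 highest and 6 lowest in r to each member, SOX and PAX genes spanning at least 2 log2 units, up to 4 genes a list by widest span, neighbours and source markers, with exceptions stated. Sample letters were checked as a pairing across teratoma cultures: array deviations had a median r of 0.07 for the same letter and -0.03 for different letters, so no block was used. Alternatives covered all arrays under their labels, array centring, probe set choice, a filter on dim genes, leaving out each array, and Spearman rho.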

Additional observations from a re-analysis of the deposited data

Results flagged for a closer look

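Among 97 named genes, 12 had 1 teratoma culture mean far from the other 7 by Dixon's criterion. Chance meets that criterion in about 1 of 20 groups, but many of the 97 were named for a wide span over these cultures. That rate therefore does not apply to them, and the 12 are a description only. SOX2 and PAX6 were not among the 12. TE31, a culture with SOX2 near skin, stood apart in 5 genes: low for SOX11 (7.13), ZIC2 (4.39) and ELP4 (7.71), and high for STMN2 (8.69) and OLIG2 (6.05). OLIG2 and ELP4 spanned only 0.43 and 0.50 log2 units and were not called among the cultures. TC31, the lowest of the 5 cultures high in SOX2, was high for FOXA1 (6.12) and SOX17 (5.94). TA38, the highest in PAX6, was low for DCN (11.26) and ASS1 (9.91). TB38, the highest in SOX2, was high for S100B (7.64), TD31 was low for GATA6 (8.85), and TB31 was high for TYROBP (5.76). TYROBP spanned 0.64 log2 units, and TYROBP, GATA6 and SOX17 were not called among the cultures. The array labelled C3806c, not used in the comparisons, had SOX2 at 9.03 and PAX6 at 8.76, above the highest skin arrays kept, at 4.62 for SOX2 and 5.18 for PAX6.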

How the results depend on the processing

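The choice of probe set moved the members most: the culture means of SOX2 spanned 1.13 and 1.26 log2 units on its other probe sets (6.12 on the brightest) and those of PAX6 3.02 (5.80). The r between SOX2 and PAX6 was 0.93 by Pearson, 0.90 by Spearman rho, and 0.91 to 0.97 without 1 culture (0.97 without TA38, 0.96 without TB38). It was 0.65 between PAX6 and MmugDNA.26127.1.S1_at of SOX2, and 0.87 between SOX2 and the second PAX6 probe set. Genes with r of at least 0.9 to SOX2 came to 6, and to 10 by Spearman rho, 3 of them shared. For PAX6 they came to 6, and to 10 without TB31, 5 of them shared. Genes called between teratoma and skin fibroblasts came to 170, and to 52 with all 39 arrays under their labels. Between lines 3806 and 3106, 5 genes were called higher and 1 lower, 4 and 2 with all 39 arrays, and 5 and 2 with each array centred on its median or without the array labelled M106p1e. Leaving out each array in turn gave a SOX2 span of 6.02 to 6.23, a PAX6 span of 5.75 to 5.97, a SOX2 difference between ESCs and skin of 7.95 to 8.09, and counts of 2072 to 2186, 2795 to 2876, 161 to 188 and 5 to 7 for cultures, ESCs against skin, teratoma against skin and the lines. With the sample letter as a replicate block 2143 genes were called among cultures (2121 without). Of the values for single genes, 276 stayed within their spread or on their side of the threshold and 125 moved, among them the PAX6 difference between ESCs and skin, which was 0.55 with all 39 arrays (-0.14 without the 3) and passed in neither. Causes of these shifts were not tested.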

Other observations

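A dimmer PAX3 probe set, MmuSTS.3542.1.S1_at, was noticed after its values were seen, and it differs from the flat brightest one (span 0.41). PAX3, a paired-box factor of neural crest, dorsal neural tube and muscle progenitors, spanned 4.38 log2 units there, with 9.13 in TB38, 8.14 in TC31, 8.06 in TC38, 7.31 in TA31, 7.23 in TE31, 6.79 in TD31, 4.93 in TA38 and 4.75 in TB31. ESC lines C3106 and C3806 had 4.17 and 4.41, and skin had 4.04 to 4.29. Every teratoma mean lay above the ESC and skin means, as for PAX6 on its brightest probe set but not on its second. TA38, the highest in PAX6, was next to lowest in PAX3 (r = 0.45 to SOX2). Of 10 other probe sets of the PAX genes besides PAX6, it was the only one that spanned at least 1 log2 unit.

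Of 15 other probe sets of the SOX genes besides SOX2, 5 spanned at least 1 log2 unit. SOX6, known from muscle, cartilage and neural progenitors, had r = 0.93 to SOX2 on MmugDNA.26901.1.S1_at, with 7.28 in TA31, 6.91 in TB38, 6.77 in TA38, 6.35 in TC31 and 6.33 in TC38. TB31 had 5.90, TE31 5.74 and TD31 5.28, ESC lines C3106 and C3806 had 5.29 and 5.31, and skin had 5.54 to 5.73. On its brightest probe set SOX6 spanned 0.75, with r = 0.89.

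Probe sets with no single gene symbol were ranked too. Of 599 that spanned at least 2 log2 units, 8 (1.34%) had r of at least 0.9 to SOX2 and 0 to PAX6. The highest, MmugDNA.8518.1.S1_at, had r = 0.97, with 4.76 to 8.96 in teratoma cultures, 8.05 and 9.04 in ESC lines and 4.78 to 5.16 in skin. Within teratoma cultures, deviations of arrays from their culture mean had r = 0.54 between SOX2 and PAX6 over 23 arrays.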
